A study of Mus musculus with 10 samples.

Results

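The 10 genes described here serve protein folding and the stress response in the endoplasmic reticulum (ER): the chaperones Hspa5 and Hsp90b1, the lectin chaperones Calr and Canx, the disulfide isomerases P4hb, Pdia3, Pdia4 and Pdia6, and the transcription factors Xbp1 and Ddit3. They were chosen by name, and their identifiers were found among the 56748 genes of the count tables through the GENCODE annotation, so the list holds 10 of 56748 genes. RNA sequencing covered the whole heart with its atria, in 5 wild-type male C57BL/6 mice that ran on a treadmill and in 5 sedentary mice of the same age and genotype. The training mice were forced to run at 15 m/min for 120 minutes a day, 5 days a week, for 8 weeks. All mice were bought at 8 weeks of age, no group carries a transgene, and each library comes from 1 heart. The question of the comparison was which transcripts differ between training and sedentary hearts.

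Proteins that are secreted or set into membranes are folded in the ER. Hspa5 (BiP) binds unfolded chains with the help of J-domain proteins, Hsp90b1 (GRP94) finishes a set of client proteins, Calr and Canx hold glycoproteins by their sugar, and the isomerases form and rearrange disulfide bonds. When unfolded proteins build up, the sensors Ern1 (IRE1), Eif2ak3 (PERK) and Atf6 start the unfolded protein response: IRE1 splices Xbp1 mRNA into the form that codes for an active factor, Atf6 is cut at the Golgi, and PERK slows translation and raises Atf4, which drives Ddit3 (CHOP). In the heart, where calcium is cycled through the sarcoplasmic reticulum, Calr and Canx also bind calcium.

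Several of these genes share a promoter sequence, and it is shown because it is the classical link between them. The ER stress response element (ERSE), spelled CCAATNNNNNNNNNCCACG, is known as the site that NF-Y and Atf6 bind together. It was searched on both strands in the 250 bases before the canonical start site of each gene, in the GRCm39 genome. A full match lay in 5 of the 10 windows, Hspa5, Hsp90b1, Pdia6, Calr and Canx, against 25 of 21770 windows of protein-coding genes (0.115%). Since the element was searched as a known link between these genes, the contrast carries no test. Hsp90b1 held 2 matches. In the lines below, each site is read 5′ to 3′ on the strand of the match, and the capitals mark the CCAAT and CCACG letters.
Hspa5, chr2:34662037-34662055 of GRCm39, plus strand, 67 bases before the start: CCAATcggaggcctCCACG
Hsp90b1, chr10:86541502-86541520, minus strand, 142 bases before the start: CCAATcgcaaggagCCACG
Hsp90b1, chr10:86541397-86541415, plus strand, 37 bases before the start: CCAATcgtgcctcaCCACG
Pdia6, chr12:17316492-17316510, plus strand, 41 bases before the start: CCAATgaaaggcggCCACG
Calr, chr8:85573704-85573722, plus strand, 55 bases before the start: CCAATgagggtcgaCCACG
Canx, chr11:50216627-50216645, minus strand, 116 bases before the start: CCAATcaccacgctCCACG
The match of Hspa5 and the nearer match of Hsp90b1 also lie inside the annotated span of longer transcripts of the same gene.

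The whole windows are given for Pdia6 and Canx, the members with a full match that were higher in the training hearts. They are read on the strand of the gene, with the ERSE letters in capitals.
Pdia6, chr12:17316283-17316532 of GRCm39, plus strand: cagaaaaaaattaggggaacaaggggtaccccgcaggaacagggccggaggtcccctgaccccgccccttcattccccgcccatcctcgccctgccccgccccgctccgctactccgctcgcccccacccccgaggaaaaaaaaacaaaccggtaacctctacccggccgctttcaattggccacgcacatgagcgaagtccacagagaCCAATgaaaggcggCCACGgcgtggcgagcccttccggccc
Canx, chr11:50216530-50216779 of GRCm39, minus strand: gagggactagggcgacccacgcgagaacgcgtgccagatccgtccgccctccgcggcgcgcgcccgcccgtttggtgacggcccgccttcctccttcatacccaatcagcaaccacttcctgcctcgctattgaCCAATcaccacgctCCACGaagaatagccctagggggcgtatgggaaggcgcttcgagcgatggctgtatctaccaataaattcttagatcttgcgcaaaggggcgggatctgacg
The window of Pdia6 was 64.4% G and C and that of Canx 61.2%.

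Other elements of the stress response were searched in the same windows. ERSE-II, a shorter element that binds the same factors, stood in 12 of all windows (0.0551%) and TGACGTGG, the core of the UPRE that Xbp1 protein binds, in 122 (0.56%), and neither was found in a window of the 10 genes. CCAAT alone stood in 36.5% of all windows and in 7 of the 10, and CCACG alone in 30.4% and in 6, and both are also part of each ERSE. Ddit3 held the letters of the composite site bound by Atf4 with a C/EBP partner, TGATGNAAT, which were found in 175 of all windows (0.804%). It is shown as the element by which Ddit3 differs from the chaperones.
Ddit3, chr10:127126360-127126368 of GRCm39, minus strand, 200 bases before the start: TGATGcAAT
The match of Ddit3 and its whole window lie inside the annotated span of the gene. That span starts at 127124268, and the canonical start is at 127126560. These matches are letters in a window and were not tested as binding sites.

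The training libraries held 29461697 to 35945417 counts on genes and the sedentary libraries 35196993 to 39431030, so the training group was sequenced less deeply (exact two-sided permutation test, p = 0.0238, where 0.00794 is the smallest p this design allows). Levels per gene (CPM, counts scaled to library size) are relative to each library, with TMM scaling. Of 15454 genes with enough counts to be tested by edgeR's quasi-likelihood test, 1084 (7.01%) were called at a false discovery rate (FDR) below 0.1, of which 425 were higher (2.75%) and 659 lower (4.26%) in the training hearts. With library totals alone in place of TMM, 1029 were higher and 339 lower, and the median over all genes moved from 0.000259 to 0.0533 on the log2 scale. Counting noise did not cover the spread within a group, and training heart 1 was furthest from its group (chi-square per degree of freedom of 18.5 to 25 against the others, which ranged from 6.15 to 11.7 among themselves). Among sedentary hearts the values ran from 8.54 to 28, the highest for hearts 1 and 5. On the first principal component (23.9% of the variance), sedentary heart 1 lay among the training hearts.

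All 10 genes were tested, and the smallest count of any of them in a heart was 235. In the training hearts Pdia6, Canx and Pdia3 were higher at an FDR below 0.1, which is 3 of 10 genes against 2.75% of all tested genes. The other 7 did not pass, and none was lower. The fitted log2 fold change (training over sedentary) was above 0 for 10 of 10 genes, against 50.1% of all tested genes, with a median of 0.14 and a range from 0.04 (Pdia4) to 0.25 (Ddit3, which was 0.02 with a score of atrial markers as a covariate). The differences are small: that of Pdia6, the largest of those called, was 17.7%. Since the list was chosen with earlier results of these data known, these shares describe it and carry no test. In tissue RNA, a change in the share of a cell type and a change in RNA per cell cannot be told apart.

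**Figure D1:**
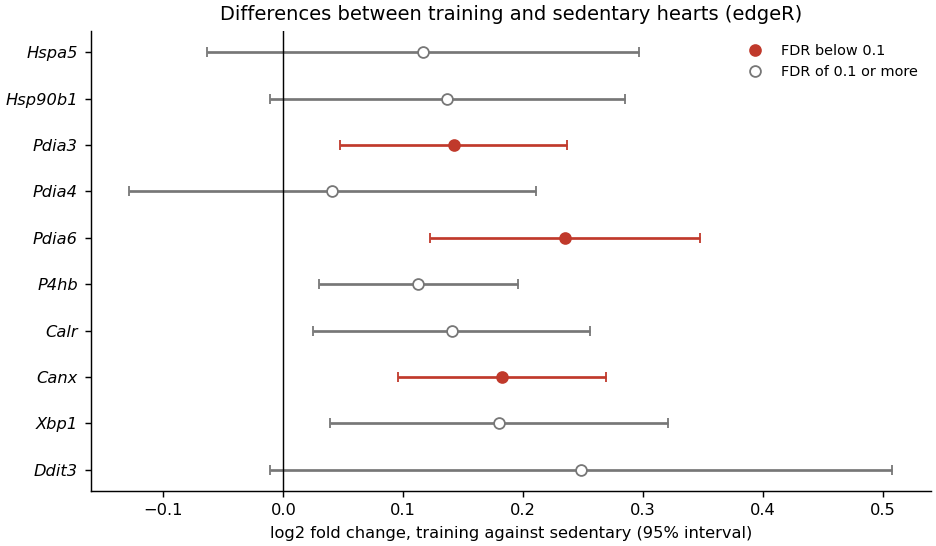
Fitted log2 fold change, training over sedentary (x axis), for each of the 10 genes (y axis), with bars for the 95% interval of edgeR's fit (n = 5 hearts per group); filled red points passed an FDR of 0.1. Every point lies above 0, and the intervals of Hspa5, Hsp90b1, Pdia4 and Ddit3 include 0.

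The general chaperones Hspa5 and Hsp90b1 did not pass the test. Hspa5 (ENSMUSG00000026864, chr2:34661982-34668880 of GRCm39, plus strand) is the HSP70 of the ER, the chaperone that also holds the stress sensors inactive. It was at 692.2, 594.5, 597.8, 794.8 and 668.8 CPM in training hearts 1 to 5 and at 557.3, 586.1, 608.3, 724.0 and 613.3 CPM in sedentary hearts 1 to 5. The groups overlapped widely: only training heart 4 lay above every sedentary heart, and training hearts 2 and 3 lay below the sedentary mean. The means were 669.6 ± 82.1 CPM (SD, n = 5) in training and 617.8 ± 63.4 CPM (SD, n = 5) in sedentary hearts, a log2 difference of 0.12 (SE 0.084, 95% interval −0.06 to 0.30, FDR 0.48).

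Hsp90b1 (ENSMUSG00000020048, chr10:86526073-86541446, minus strand) is the HSP90 of the ER. Its level was 395.8, 393.5, 346.7, 438.0 and 404.9 CPM in training hearts 1 to 5, and 337.5, 328.9, 371.2, 413.1 and 349.0 CPM in sedentary hearts 1 to 5. As for Hspa5, heart 4 was the highest of either group, and training heart 3 lay below the sedentary mean. The means of 395.8 ± 32.7 and 360.0 ± 33.7 CPM (SD, n = 5 each) gave a log2 difference of 0.14 (SE 0.069, interval −0.01 to 0.28, FDR 0.288). The gene shares exon sequence on its own strand with the annotated genes Gm15344 and Gm54730, and expected counts, which divide shared reads, were 1.05 to 1.08 times its unique counts.

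Of the lectin chaperones, Canx differed between the groups with the least spread. Canx (calnexin, ENSMUSG00000020368, chr11:50183939-50216529, minus strand) is anchored in the ER membrane. It was at 371.7, 360.3, 359.5, 369.0 and 365.2 CPM in training hearts 1 to 5 and at 301.5, 320.3, 319.2, 346.5 and 321.4 CPM in sedentary hearts 1 to 5. Each training heart lay above each sedentary heart, which held for 2.12% of all tested genes (5.06% with the opposite direction included) and for no other member. The training hearts also lay close together, with a coefficient of variation of 1.46% against 4.99% in the sedentary hearts. The means were 365.2 ± 5.34 and 321.8 ± 16.0 CPM (SD, n = 5 each), a log2 difference of 0.18 (SE 0.041, interval 0.10 to 0.27, FDR 0.0307).

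Calr (calreticulin, ENSMUSG00000003814, chr8:85567946-85573667, minus strand) is the soluble partner of Canx in the ER lumen. It was at 335.8, 366.8, 325.5, 346.3 and 328.2 CPM in training hearts 1 to 5 and at 291.8, 290.1, 302.5, 347.7 and 312.8 CPM in sedentary hearts 1 to 5. Every training heart was above 4 of the sedentary hearts, and sedentary heart 4 was above all training hearts but heart 2. The means of 340.5 ± 16.8 and 309.0 ± 23.5 CPM (SD, n = 5 each) differed by 0.14 on the log2 scale (SE 0.054, interval 0.02 to 0.26), with an FDR of 0.167, and without sedentary heart 4 the FDR was 0.0731 for a log2 difference of 0.19.

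**Figure D2:**
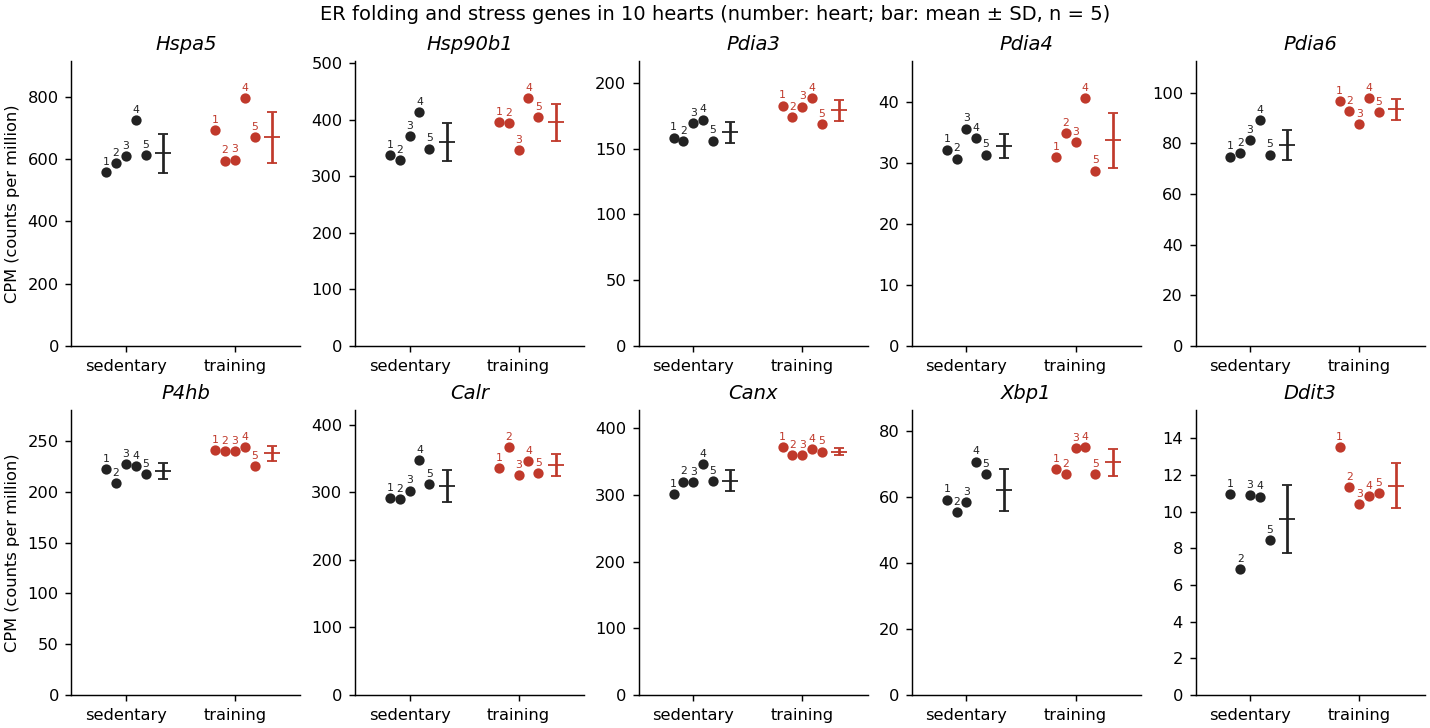
TMM-scaled CPM (y axis of each panel, from 0) of the 10 genes in the 5 sedentary (black) and 5 training (red) hearts; each point is 1 heart with its number, and the bar beside the points is the mean ± SD. The groups of Canx are apart, 359.5 CPM being the lowest training and 346.5 CPM the highest sedentary heart, and sedentary heart 4 is the highest of its group in 7 of the 10 panels.

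Among the disulfide isomerases, Pdia6 and Pdia3 were higher in training hearts, and P4hb and Pdia4 did not pass the test. Pdia6 (ENSMUSG00000020571, chr12:17316533-17335913, plus strand) reduces and forms disulfide bonds and is known to work beside Hspa5. It was at 96.5, 92.5, 87.7, 97.7 and 92.1 CPM in training hearts 1 to 5 and at 74.7, 75.9, 81.2, 89.1 and 75.5 CPM in sedentary hearts 1 to 5. The groups overlapped by a single pair of hearts, since training heart 3 lay just below sedentary heart 4. With means of 93.3 ± 3.99 and 79.3 ± 6.05 CPM (SD, n = 5 each), the log2 difference was 0.24 (SE 0.052, interval 0.12 to 0.35, FDR 0.031).

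Pdia3 (ERp57, ENSMUSG00000027248, chr2:121244149-121270339, plus strand) is the isomerase that Calr and Canx bring to glycoproteins. It was at 182.7, 174.1, 182.1, 188.4 and 168.5 CPM in training hearts 1 to 5 and at 158.5, 155.6, 169.5, 172.1 and 156.1 CPM in sedentary hearts 1 to 5. Training hearts 1 to 4 lay above every sedentary heart, and training heart 5 lay within the sedentary range. The means were 179.2 ± 7.82 and 162.4 ± 7.84 CPM (SD, n = 5 each), and the log2 difference of 0.14 (SE 0.044, interval 0.05 to 0.24) had an FDR of 0.0955, close to the threshold. That call was lost without training heart 1 (FDR 0.141), 3 (0.181) or 4 (0.212), or without sedentary heart 1 (0.128), 2 (0.194), 3 (0.12) or 5 (0.177), at log2 differences of 0.12 to 0.16. With 1 heart left out at a time, Pdia6 and Canx were called in 10 of 10 fits, with FDR of at most 0.0793 and 0.0785.

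P4hb (ENSMUSG00000025130, chr11:120451122-120464538, minus strand) is protein disulfide isomerase itself and also a subunit of the enzyme that hydroxylates collagen. It was at 241.4, 239.7, 240.2, 243.8 and 225.2 CPM in training hearts 1 to 5 and at 222.7, 208.2, 227.3, 225.4 and 217.4 CPM in sedentary hearts 1 to 5. Training hearts 1 to 4 lay close together above the sedentary range, and training heart 5 lay within it. The means of 238.1 ± 7.39 and 220.2 ± 7.69 CPM (SD, n = 5 each) gave a log2 difference of 0.11 (SE 0.039, interval 0.03 to 0.20) with an FDR of 0.128 in edgeR and 0.0449 in DESeq2's Wald test, which called 4 of the 10 genes higher, against 3.73% of all tested genes.

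Pdia4 (ERp72, ENSMUSG00000025823, chr6:47770077-47790462, minus strand) is an isomerase found in complexes with Hspa5. It was at 31.0, 34.96, 33.4, 40.7 and 28.8 CPM in training hearts 1 to 5 and at 32.2, 30.7, 35.7, 34.1 and 31.4 CPM in sedentary hearts 1 to 5. The training hearts spanned the whole sedentary range, with heart 4 above it and heart 5 below it. The means of 33.8 ± 4.52 and 32.8 ± 2.04 CPM (SD, n = 5 each) gave a log2 difference of 0.04 (SE 0.079, interval −0.13 to 0.21, FDR 0.824), which was −0.03 without training heart 4.

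The transcription factors of the stress response did not pass the test. Xbp1 (ENSMUSG00000020484, chr11:5470606-5483027, plus strand) was at 68.4, 66.9, 74.7, 75.0 and 66.9 CPM in training hearts 1 to 5 and at 59.1, 55.4, 58.5, 70.6 and 66.9 CPM in sedentary hearts 1 to 5. Sedentary hearts 1 to 3 lay below every training heart, and sedentary hearts 4 and 5 lay among them. Its means of 70.4 ± 4.11 and 62.1 ± 6.36 CPM (SD, n = 5 each) differed by 0.18 on the log2 scale (SE 0.066, interval 0.04 to 0.32), with an FDR of 0.148. Without sedentary heart 4 the FDR was 0.0816 at a log2 difference of 0.23. A count per gene holds spliced and unspliced Xbp1 mRNA together, so the active form was not measured.

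Ddit3 (CHOP, ENSMUSG00000025408, chr10:127124268-127132163, plus strand) is the factor of prolonged stress. It was at 13.5, 11.3, 10.4, 10.8 and 11.0 CPM in training hearts 1 to 5 and at 11.0, 6.9, 10.9, 10.8 and 8.4 CPM in sedentary hearts 1 to 5. Most hearts lay near 11 CPM, training heart 1 stood above and sedentary hearts 2 and 5 below. The means of 11.4 ± 1.22 and 9.60 ± 1.86 CPM (SD, n = 5 each) gave a log2 difference of 0.25 (SE 0.12, interval −0.01 to 0.51, FDR 0.27). Up to 20.9% of the counts at this gene lay on the other strand, where exons of Gm4189, Mars1 and Mbd6 overlap it, against at most 1.03% for the other members, and only reads on its own strand were used. A second identifier with the same symbol was at 0 in every heart.

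Levels between genes were compared only per transcript length, by the length-scaled TPM that the authors deposited. In the sedentary hearts the order was Hspa5 at 263.6 ± 23.0 TPM, Calr at 176.9 ± 10.9, Hsp90b1 at 166.8 ± 17.6, Canx at 104.8 ± 6.00, P4hb at 101.5 ± 6.27, Pdia3 at 68.6 ± 5.28, Pdia6 at 42.0 ± 2.92, Xbp1 at 36.02 ± 2.87, Pdia4 at 14.4 ± 1.21 and Ddit3 at 12.9 ± 2.90 TPM (SD, n = 5 each). Compared within each heart, 3 neighbours in this order changed places: Calr was above Hsp90b1 in 4 of 5 sedentary hearts, Canx above P4hb in 3 of 5 and Pdia4 above Ddit3 in 4 of 5. The other neighbours kept their order in 5 of 5, Pdia6 and Xbp1 among them, although the ranges of that pair overlapped. The level of Hspa5 was above 98.2% and that of Ddit3 above 72.0% of the tested genes.

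The hearts differed in these genes within each group as well. Training heart 4 was the highest of all 10 hearts in 7 of the 10 genes, with a median log2 level of 0.25 above the sedentary mean. Sedentary heart 4 was the highest of its group in 7 genes and above the sedentary mean in 10 of 10 (median 0.17), which is above the medians of training hearts 1, 2, 3 and 5 (0.12 to 0.16). Sedentary heart 2 was the lowest of its group in 7 genes (median −0.08). The group medians therefore overlapped through 1 sedentary heart. Without sedentary heart 4, 5 of the 10 genes were called higher (1.75% of all genes in that fit), Calr and Xbp1 being added. Without the hearts numbered 1 of both groups, left out after the data were seen because they stood apart, Canx and Pdia6 were called and Pdia3 was not (FDR 0.171). In that fit 3.98% of all tested genes were called higher.

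**Figure D3:**
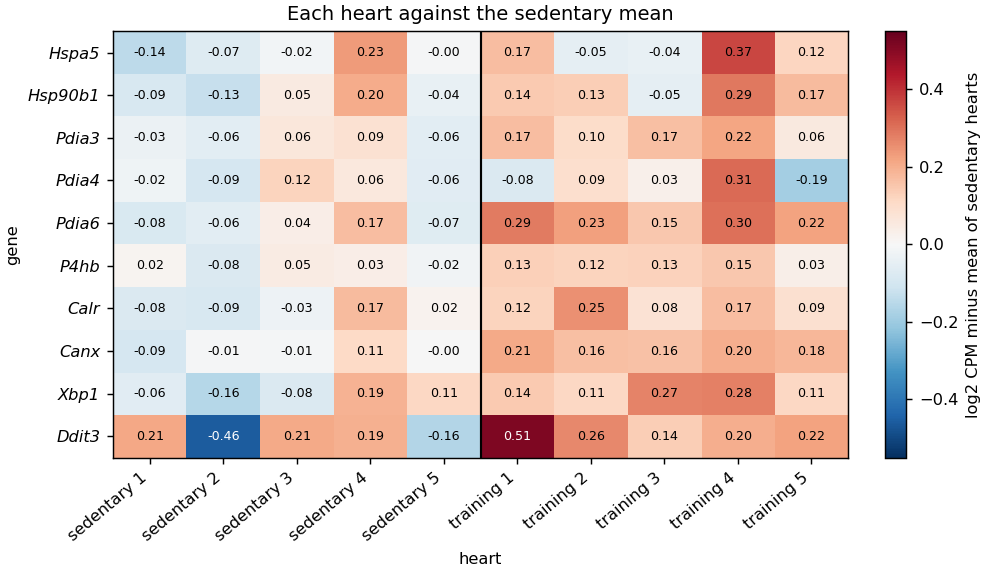
Log2 CPM of each gene (rows) in each heart (columns) minus the mean of the 5 sedentary hearts, printed in each cell and coloured from blue (lower) to red (higher), with a line between the sedentary and training hearts. Training heart 4 is above the sedentary mean in every row, and so is sedentary heart 4, while sedentary heart 2 is below it in every row.

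From heart to heart, with the mean of each group removed, the genes were correlated to very different degrees. Over the 10 hearts, Pearson's r was above 0 for 45 of the 45 pairs, with a median of 0.49 and a range from 0.10 (Canx and Ddit3) to 0.91 (Hsp90b1 and Pdia6). These values share the hearts, their cell makeup and the scaling of each library, and the share of other gene pairs above 0 was not computed. Among 10240 genes ranked by r with Hspa5, Hsp90b1 had rank 20, Pdia6 37 and Canx 75. Pdia3 had rank 422, Xbp1 585, Calr 948, Pdia4 1438, P4hb 2557 and Ddit3 3143. Each pair was tested by an exact two-sided permutation within the groups (14400 assignments), with Benjamini-Hochberg adjustment over the 45 pairs. By Pearson's r, 6 pairs had an adjusted p below 0.05, and by Spearman's rho 2 pairs did.

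The tightest pair was Hsp90b1 and Pdia6, with r = 0.91 (exact permutation p = 0.00236, adjusted 0.026) and rho = 0.90 (exact permutation p = 0.0034, adjusted 0.051). Without the 2 hearts furthest from the median of Hsp90b1, r was 0.84. Hspa5 and Hsp90b1 had r = 0.86 (exact permutation p = 0.00333, adjusted 0.026) and rho = 0.76 (p = 0.00951, adjusted 0.107), and r fell to 0.60 without the hearts furthest from the median of Hspa5. Both measures passed for Hspa5 with Canx (r = 0.77, rho = 0.90, exact permutation p = 0.00208 for each, adjusted 0.026 and 0.0469, r = 0.70 without the 2 hearts) and for P4hb with Pdia3 (r = 0.82, rho = 0.93, exact permutation p = 0.00285 and 0.00125, adjusted 0.026 and 0.0469, r = 0.85 without the 2 hearts). Of the 5 genes with a full ERSE, Hspa5, Hsp90b1, Pdia6 and Canx had r of 0.70 to 0.91 among themselves. Calr had r = 0.71 with Hsp90b1, 0.72 with Pdia6, 0.69 with Canx and 0.49 with Hspa5. Between these 5 genes and the other 5, r ran from 0.10 to 0.72 (Pdia3 and Pdia6), the next highest being 0.61 (Hspa5 and Pdia3). Among P4hb, Pdia3 and Pdia4, none of which has a full ERSE, r was 0.72 to 0.82. The part of the element in these correlations was not tested. Canx had r = 0.13 with P4hb and with Pdia4.

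**Figure D4:**
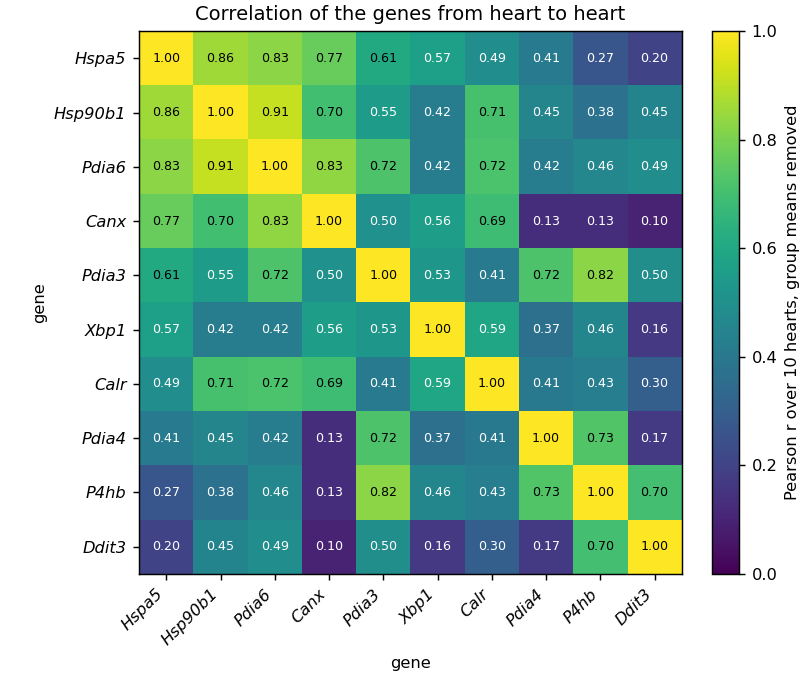
Pearson's r between the genes (both axes) over the 10 hearts after the mean of each group was removed, printed in each cell and coloured from 0 to 1. The highest value is 0.91 for Hsp90b1 and Pdia6, and Ddit3 has its highest value with P4hb (0.70).

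Of 10231 other genes at a mean level from 5 CPM upwards, the 5 whose levels followed Hspa5 most closely over the 10 hearts were Dnajb9 (r = 0.94), Snd1 (0.92), Manf (0.91), Prps1l3 (0.90) and Slc41a1 (0.90). Dnajb9 (ERdj4) is a J-domain partner of Hspa5, and Manf is a secreted ER stress protein that binds it. For Dnajb9, rho was 0.96, and r was 0.93 without sedentary heart 4 and training heart 4, the hearts furthest from the median of Hspa5, while r of the other 4 fell to 0.65 to 0.75. Ddit3 had other companions: Pirt (r = 0.92), Ppp1r3b (0.92), Ssbp2 (0.91), Acot11 (0.91) and Dctn6 (0.89). For these r was 0.73 to 0.91 without training heart 1 and sedentary heart 2. The r of these genes is the highest of 10231, so no p is given.

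The other genes of ER folding and stress, 109 in 9 hand-written lists, were all tested. Of these, 10 were higher (9.17%, against 2.75% of all tested genes) and 1 was lower in the training hearts, 65 were above 0 and 44 below, and the median log2 fold change was 0.03. Of all tested genes, 4.26% were called lower and 50.1% were above 0, and these shares apply beside each list below. With an FDR of 0.05 as the threshold 4 of the 11 were called, and Txndc5, Tmx4, Tram1 and P4ha2 were the 4 that were also called whichever heart was left out.

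Of 16 genes in the list of ER cochaperones, 3 were higher, none was lower, 13 were above 0 and the median was 0.11. Among all tested genes, 2.75% were called higher and 50.1% were above 0. Hspa13, an HSP70-like protein of the ER, was at 20.6 ± 0.925 against 18.3 ± 0.933 CPM, a log2 fold change of 0.17 (FDR 0.0826). The J-domain proteins Dnajb11 (0.14, FDR 0.0771) and Dnajc10 (0.16, FDR 0.0826) were higher too. The largest value of the list, 0.19 for Sdf2l1, a partner of Dnajb11, did not pass (FDR 0.362).

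In the list of other disulfide enzymes, 3 of 14 were higher, 8 were above 0 and the median was 0.03. DESeq2 called the same 3 higher and Qsox1 lower, which had a log2 fold change of −0.17 in edgeR (FDR 0.116). Tmx4, a membrane-bound thioredoxin-like protein, was at 88.1 ± 7.06 CPM in training and 69.8 ± 3.62 CPM in sedentary hearts (SD, n = 5 each), and its groups did not overlap (log2 fold change 0.34, SE 0.057, FDR 0.0116). Pdia5 was at 5.52 ± 0.508 against 4.38 ± 0.406 CPM (0.33, FDR 0.0649), and Txndc5, an isomerase known from fibroblasts and endothelium, at 66.9 ± 2.65 against 58.5 ± 1.62 CPM (0.19, FDR 0.0231). The groups of both were apart, as were those of 5.06% of all tested genes, either direction counted.

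Glycoprotein trimming and quality control held no called gene among 8 by edgeR or DESeq2 and none at an unadjusted p below 0.05, with a median of 0.05. The glucosidases that trim the sugars read by Calr and Canx had log2 fold changes of 0.12 (Mogs, FDR 0.277) and 0.06 (Ganab, FDR 0.483). Translocation into the ER and signal peptide removal held 1 called gene of 18: Tram1, a partner of the translocon, at 39.3 ± 1.75 against 34.3 ± 1.302 CPM (0.20, FDR 0.0316), beside 0.16 for the signal peptidase subunit Sec11a (FDR 0.14). Its median was 0.03.

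The sensors and the stress arms did not move as one. Of 8 genes for sensing and processing, Mbtps1, the protease that makes the first cut in Atf6, was higher (65.6 ± 1.52 against 60.4 ± 1.81 CPM, 0.12, FDR 0.0942), and the median was −0.01. Atf6 itself was at 173.3 ± 7.57 CPM in training and 190.6 ± 9.15 CPM in sedentary hearts (−0.14, FDR 0.108). It was called lower by DESeq2's Wald test (FDR 0.0572), by edgeR in a fit that includes the atrial score (−0.22, FDR 0.0961) and without sedentary heart 2 (−0.16, FDR 0.0842). Ern1 and Eif2ak3, named for their role after their values were seen, had log2 fold changes of −0.04 (FDR 0.82) and 0.10 (FDR 0.347). None of 14 genes of the Atf4 and Ddit3 axis was called by edgeR, where 2 had an unadjusted p below 0.05, DESeq2 called 1 (Atf4, lower), and 7 were above and 7 below 0. The early response factor Atf3 was at 11.9 ± 4.11 against 19.1 ± 7.16 CPM (−0.68, SE 0.27, FDR 0.179) and Cebpb at 46.6 ± 8.37 against 56.1 ± 14.3 CPM (−0.27, FDR 0.391), both with wide spread between hearts. Atf3 was called lower in 4 of 22 alternatives. These were without sedentary heart 1 (−0.86, FDR 0.0416), without both hearts numbered 1, with the mouse number as a block (−0.67, FDR 0.011) and with no filter on low counts (−0.69, FDR 0.0655). Atf4, also named after its values were seen, was at 58.3 ± 3.80 against 65.3 ± 3.71 CPM (−0.16, FDR 0.108). By edgeR, Atf4 was called lower without training heart 3 and without sedentary heart 1. Cebpb was called lower in 1 of 22 alternatives, without sedentary heart 1 (FDR 0.098).

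ER-associated degradation, which removes misfolded proteins, held none called of 19 by edgeR, with 3 at an unadjusted p below 0.05, and 1 called by DESeq2 (Derl1, higher), with 9 above and 10 below 0 and a median of −0.0015. Its largest differences among genes with at least 1 CPM were 0.16 for Selenos (FDR 0.211) and 0.13 for Herpud1 (FDR 0.508). Among 11 prolyl isomerases and collagen chaperones the 2 called genes went opposite ways. Fkbp9 was at 143.1 ± 4.37 against 130.6 ± 3.89 CPM (0.13, FDR 0.0682). P4ha2, the catalytic partner of P4hb in collagen hydroxylation, was at 45.5 ± 2.33 against 52.2 ± 1.31 CPM (−0.20, FDR 0.0279). Neither had overlapping groups, which held for 5.06% of all tested genes.

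A hand-written list named for targets of Atf6 or Xbp1, 13 genes, had 12 above 0 and 3 called higher, with a median of 0.13. Among all tested genes, 50.1% were above 0 and 2.75% were called higher. That each listed gene is such a target was not tested. It shares Hspa5, Pdia4 and Pdia6 with the members and Sdf2l1, Dnajb9, Dnajb11, Hyou1 and Manf with the cochaperones. Only Creld2 and Crebrf stood in no other list, so its values largely repeat those above. Besides Pdia6 and Dnajb11 the called gene was Crebrf, a regulator of the Atf6-related factor Creb3, at 55.3 ± 3.96 against 45.2 ± 5.15 CPM (0.29, FDR 0.0502). By the promoter letters, the 5 members with a full ERSE and the 5 without one had the same median within 0.01 (0.14 and 0.14), with 2 and 1 called. Of 19 tested genes outside the list with ERSE or ERSE-II in the window, none was called by edgeR or DESeq2, 1 had an unadjusted p below 0.05 in edgeR, 13 were above and 6 below 0, and the median was 0.08.

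**Figure D5:**
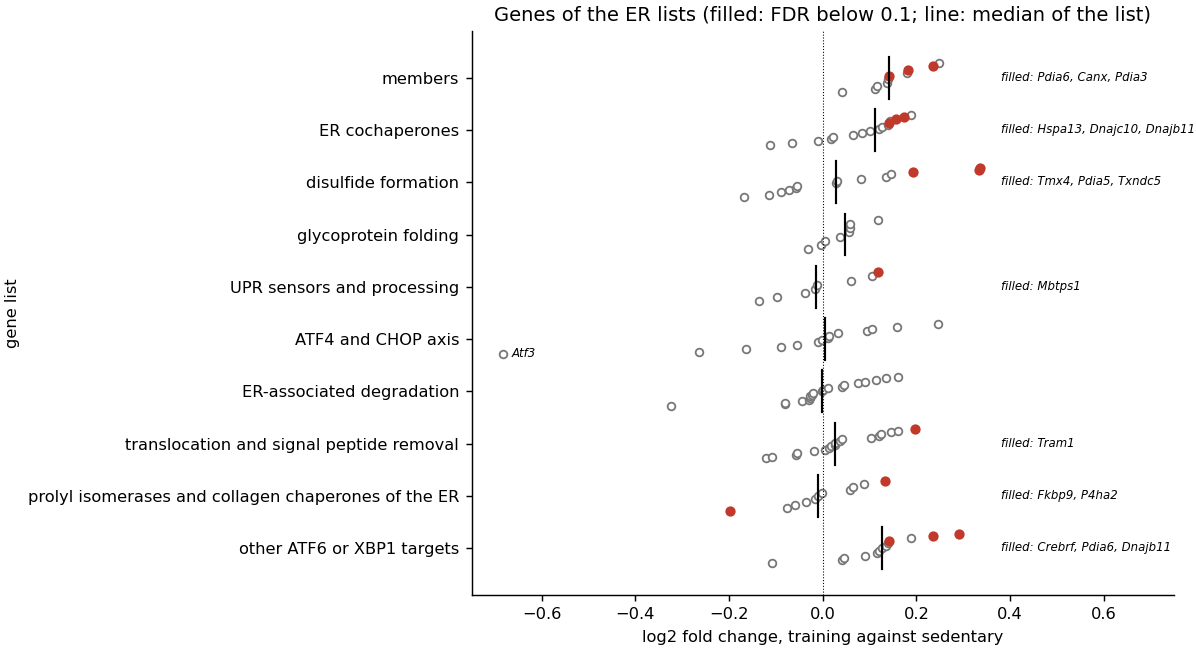
Fitted log2 fold change, training over sedentary (x axis), of each gene in the member list and the 9 other ER lists (y axis); open points did not pass an FDR of 0.1, filled red points did and are named at the right, and the black line is the median of each list. The medians of the members, the cochaperones and the Atf6 or Xbp1 targets lie between 0.11 and 0.14, and those of the other lists between −0.01 and 0.05. Most of the targets are also members or cochaperones, so these medians are not separate results.

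Markers of some cell types moved with the groups. Of 8 atrial markers, 8 were above 0 (50.1% of all tested genes) and 3 were called higher (2.75% of all tested genes). The 3 were Sln, Kcnj3 and Stard10, and the median of the list was 0.47. Their summed level was 5188 to 7767 CPM in the training and 2922 to 6994 CPM in the sedentary hearts. With the atrial score as a covariate none of the 10 members was called by edgeR and 89 genes were called in all, 17 of them higher (0.11%). The log2 fold changes were then 0.19 for Canx (FDR 0.196), 0.21 for Pdia6 (FDR 0.274) and 0.09 for Pdia3 (FDR 0.578), and the median of the members was 0.10. The value of Pdia3 was thus lower than without the covariate (0.14), while those of Canx and Pdia6 moved by less.

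Of 8 fibroblast markers, 7 were above 0 and 2 were called higher by edgeR (Pdgfra and Lum), with Tcf21 added by DESeq2. Their median was 0.15, and their summed level was 1385 to 1729 CPM in training and 1216 to 1527 CPM in sedentary hearts. With their score as a covariate, Canx (0.22, FDR 0.0549) and Pdia6 (0.29, FDR 0.0598) were called and Pdia3 was not (0.13, FDR 0.308). In that fit 0.369% of all tested genes were called higher. Cardiomyocyte markers, which define the tissue, were below 0 in 8 of 8, with a median of −0.11. Actc1 was called lower by edgeR, and 4 were called lower by DESeq2 (Actc1, Actn2, Myh6 and Ryr2). Their summed level was 58791 to 61597 CPM in training and 61978 to 70865 CPM in sedentary hearts, without overlap. Of plasma and B cell markers, which mark cells rich in ER, 6 of 8 had enough counts to be tested and none was called by edgeR or DESeq2, with none at an unadjusted p below 0.05. Their summed level was 8.78 to 117.5 CPM in training and 7.11 to 100.2 CPM in sedentary hearts. Of 8 adipocyte markers 7 were above 0, with a median of 0.74 and none called higher, and Fabp4 was called lower. Fabp4 was at 395.1 ± 27.4 CPM in training and 466.2 ± 22.5 CPM in sedentary hearts, far above the mean level of the other 7. Among the other marker lists, Tie1 of 8 endothelial genes was called lower, Tagln higher and Rgs5 lower of 8 mural genes, and none of 8 macrophage, 6 Schwann cell or 5 erythroid genes was called by edgeR or DESeq2 (0, 2 and 1 at an unadjusted p below 0.05). No marker gene was at 0 in every heart. The part of these cell types in the differences of the ER genes was not tested beyond the covariates.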

How the data were processed

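Directional libraries of poly-A selected RNA from 10 hearts were pooled and read from one end. The authors aligned reads to GRCm39 with STAR 2.7.10a and deposited raw read counts per gene for either strand, and RSEM 1.3.3 tables. In these the authors deposited expected counts (estimated counts, shared between genes), TPM and FPKM; the FPKM were not used here, and how RSEM treated strand is not given in the sources used here. Counts of the reverse strand were used, 94.9% to 95.6% of counts on either strand. Summary lines were left out of library sizes: multimapping reads were 17.9% to 19.2%, and reads on no gene 4.15% to 4.89%, of all reads. GENCODE M39 matched 56017 of 56748 identifiers, and promoter windows and transcript starts came from it and its GRCm39 genome.

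The tests between groups, which come from the sample labels, used edgeR 4.0.16 under R 4.3.3 (genes kept by filterByExpr, TMM scaling, quasi-likelihood F test, Benjamini-Hochberg adjustment over all tested genes, FDR below 0.1); the study used DESeq2 with this threshold, which was run as an alternative (DESeq2 1.42.0). CPM use the TMM-scaled library size, with a prior count of 2 for logarithms. FDR values are from edgeR unless DESeq2 is named. Expected counts were rounded for the alternative that used them. A marker score is the mean, over a list, of log2 CPM centred on each gene's mean.

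The 10 genes and all lists were chosen with earlier results of these data known. Named were the 10 genes, each called gene of the ER lists with the 2 largest differences per list at a mean of at least 1 CPM, and the 5 genes most like Hspa5 and Ddit3. Alternatives were other tests, scalings, filters and counts, marker scores as covariates, the mouse number as a block, and each heart left out. The steps were run on simulated counts with planted fold changes larger than any of the 10 genes. Recovery of differences as small as those of the 10 genes was therefore not tested.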

Additional observations from a re-analysis of the deposited data

Results flagged for a closer look

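One value stood apart from its group. P4hb was at 225.2 CPM in training heart 5, and the other 4 training hearts lay between 239.7 and 243.8 CPM, so that the gap to the nearest heart was 0.779 of the group's range, above Dixon's critical value of 0.71 for 5 samples. Of 44 groups of values tested in this way 1 stood out, and chance marks about 1 in 20 groups. Without training heart 5, the log2 fold change of P4hb was 0.13 with an FDR of 0.101.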

How the results depend on the processing

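Canx and Pdia6 were called in 21 of 22 alternatives, the fit with the atrial score being the exception, and Pdia3 in 10 of 22. Of the members, 3 were called as reported, against 2.75% of all tested genes called higher. With library totals alone 6 were called (Calr, P4hb and Xbp1 added, median log2 fold change 0.20), against 6.66%. With the atrial score 0 were called, against 0.11%, and with the fibroblast score 2 (median 0.20), against 0.369%. DESeq2 called 4 (P4hb added), against 3.73%. When 1 heart was left out 2 to 5 were called, against 1.21% to 4.21%, 5 being without sedentary heart 4 (1.75%). The number of all genes called was 89 with the atrial score, 168 with the fibroblast score, 505 at an FDR below 0.05, and 512 to 1490 when 1 heart was left out (512 without training heart 4 or sedentary heart 3, 540 without training heart 3, 611 without sedentary heart 2 and 671 without sedentary heart 4). Of the other ER genes, 11 as reported, 7 were called with no filter on low counts, 1 with the atrial score (Atf6, lower, which is not among the 11), 1 with the fibroblast score (Tmx4), 4 at an FDR below 0.05 and 4 to 16 when 1 heart was left out; these recounts were chosen after seeing the data. The direction turned for Pdia4 with the atrial score (−0.016) and without training heart 4 (−0.0338, the range over left-out hearts reaching 0.0923), and for Cebpb with the atrial (0.0262) and the fibroblast score (0.0121). The median ratio of training to sedentary level over the members was 1.10 by CPM and 1.16 by the authors' TPM, which carry no TMM scaling. The causes of these shifts were not tested. The labels name no pairs of hearts across the groups. Correlations of deviations were −0.10 to 0.16 for hearts with the same number, within the −0.21 to 0.21 of hearts with different numbers. These values cannot exclude shared handling of hearts with the same number. With the number as a replicate block 4 members were called (Xbp1 added, FDR 0.0941), against 3.03% of all tested genes called higher. In that fit 1137 genes were called in all and 9 of the other ER genes, Atf3 and Qsox1 among them. The median of the members was 0.14. Ddit3 rests on 235 to 477 counts per heart, and the 95% interval of its log2 fold change runs from −0.01 to 0.51.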
